A study of Mus musculus with 20 samples.

Results

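The genes described here are 8 that encode transcription regulators of the cell's general stress response, together with the feedback protein TRIB3: Atf3, Atf4, Atf5, Ddit3, Cebpb, Cebpg, Nupr1 and Trib3. They were chosen by name, and each was found on the array through a probe for its RefSeq transcript. All 8 were among the 23936 genes and transcripts tested, of which 14322 carry a gene name. The cells were mouse embryonic fibroblasts, connective tissue cells grown from embryos, of a Balb/c background, cultured in a medium with added uridine. Cultures were kept for 6, 24, 48 or 72 h with 150 µM actinonin, and control cultures, labelled 0 h, got ethanol at 3 µl/ml, the carrier. Actinonin blocks peptide deformylase, which removes the formyl group from the start of proteins made in bacteria and in mitochondria. Each of the 5 groups had 4 samples, called independent in the labels, each pooled from 4 plates, with 2 samples in the dye Cy3 and 2 in Cy5. The 20 samples shared 10 arrays in pairs. The comparisons ask how the RNA of the cells changed over the exposure, and the labels give no carrier culture for the later times, so time in culture and time in actinonin cannot be told apart.

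Cells answer amino acid shortage, unfolded proteins in the endoplasmic reticulum, missing heme, viral RNA and failing mitochondria through a shared route, the integrated stress response. Kinases phosphorylate the translation initiation factor eIF2, most translation slows, and a few mRNAs with short upstream reading frames, among them those of ATF4, ATF5 and CHOP (the product of Ddit3), are translated more. ATF4 then binds DNA with partners of the C/EBP family and raises genes for amino acid supply, tRNA loading and further regulators, and because its protein is set largely by translation, the level of Atf4 mRNA is not a measure of ATF4 protein. Of the members, Atf3, Atf4, Atf5, Ddit3, Cebpb and Cebpg encode proteins with a basic leucine zipper (bZIP), which bind DNA in pairs, NUPR1 is a small chromatin-bound protein, and TRIB3 is a kinase-like protein without normal kinase activity.

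A composite C/EBP-ATF element is the best known site of ATF4 and its partners, so the promoters of all 8 members were searched for its core, written here as TGATGNAA, on both strands. RefSeq promoters of the build GRCm38.p6 run from 250 bases before to 50 bases after the start of transcription, all 8 members matched the table, and Atf5 has a pair of entries. Atf3, Nupr1 and Trib3 held the core, against 3.97% of 32851 promoters of the same length. In Atf3 and Nupr1 the same 8 letters, TTGCATCA, are the core on the opposite strand, and in both the run begins 110 bases before the start. In Trib3 the match, TTACATCA, begins at base 15 after the start. A looser form, TGNTGCAA, was added after the sequences had been seen. It overlaps the first form at the Atf3 and Nupr1 matches, and in Trib3 it marks a further run, TGGTGCAA, 33 bases before the start. It occurred in 3.22% of promoters. The cyclic AMP response element TGACGTCA (1.79% of promoters) and the C/EBP core TTGCGCAA (0.183%) occurred in no member, which says only that these letters are not in this window. The windows with a match are shown because they belong to members with unlike time courses. The stretches are chr1:191183284-191183583 for Atf3, chr7:126625421-126625720 for Nupr1 and chr2:152344011-152344310 for Trib3, all on the minus strand, with the matches in capitals.
Atf3: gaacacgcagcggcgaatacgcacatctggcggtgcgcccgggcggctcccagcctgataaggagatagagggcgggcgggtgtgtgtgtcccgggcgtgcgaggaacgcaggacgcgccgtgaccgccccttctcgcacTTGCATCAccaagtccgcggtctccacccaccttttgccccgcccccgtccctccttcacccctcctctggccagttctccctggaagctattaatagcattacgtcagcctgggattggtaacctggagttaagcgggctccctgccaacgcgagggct
Nupr1: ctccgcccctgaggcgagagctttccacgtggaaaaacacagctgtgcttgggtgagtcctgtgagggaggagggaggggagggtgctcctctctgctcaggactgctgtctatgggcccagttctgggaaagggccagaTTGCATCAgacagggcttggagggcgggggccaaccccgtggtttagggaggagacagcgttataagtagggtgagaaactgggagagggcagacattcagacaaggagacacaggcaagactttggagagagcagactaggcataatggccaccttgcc
Trib3: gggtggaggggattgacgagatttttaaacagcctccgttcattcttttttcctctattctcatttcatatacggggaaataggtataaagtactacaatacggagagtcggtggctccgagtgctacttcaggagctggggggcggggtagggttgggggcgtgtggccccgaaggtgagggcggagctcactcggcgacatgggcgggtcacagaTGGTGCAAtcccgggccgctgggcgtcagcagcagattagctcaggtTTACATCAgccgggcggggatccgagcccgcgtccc

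Every probe of a member was well above background in all 20 samples, stood on the array as 1 spot and was never saturated. Values below are normalized log2 intensities with the fitted dye and slide terms removed. Changes are differences on the log2 scale from a limma fit over all samples, given ± standard error, called where the Benjamini-Hochberg adjusted p over all 23936 features was under 0.05. Levels of different genes come from different probes and are not compared. Between 50.8% and 70.5% of spots were well above background. The highest shares, 66.4% and 70.5%, were those of the control 2_Cy3 and the 48 h sample 2_Cy5, hybridised together on array 10. Of the 12 fibroblast markers tested, among them Col1a1, Vim and Fn1, 4, 10, 11 and 9 fell against control at 6, 24, 48 and 72 h and 1 rose at 72 h. Their mean lay between 14.47 and 15.05 in controls and between 13.46 and 13.85 at 48 h, where it was lowest. The share of all features called lower at the 4 times was 10.9%, 18.9%, 20.2% and 22.3%. Of 7 leukocyte markers listed, 6 had a named probe on the array and 5 were tested, without Ptprc and Cd68. Epithelial Epcam and Cdh1, endothelial Cdh5 and Tek and muscle Myod1 and Myog did not reach the filter on dim probes. The 2 endothelial markers that did, Pecam1 and Kdr, fell at 24 h, and 1 fell at 72 h. Their mean was 10.02 to 10.14 in controls and 9.75 to 9.91 at 24 h. Of 3 neural and glial markers tested, 1 fell at 24 h and 1 at 72 h. The 2 epithelial markers and 1 muscle marker tested were not called against control at any time. The mean over the 5 leukocyte markers tested lay between 9.62 and 9.66 in controls and between 9.58 and 9.70 at 6 h. It lay between 9.25 and 9.38 at 24, 48 and 72 h, below every control, and 3, 2 and 2 of these markers fell at those times. The mean over 2 adipocyte markers was 8.99 to 9.09 in controls, 9.168 to 9.295 at 6 h and 8.24 to 8.37 at 72 h. Of these markers 1 rose at 6 h, and 1, 1 and 2 fell at 24, 48 and 72 h. The defining marker Adipoq did not reach the filter. These shifts run beside the results below, and their part in them was not tested.

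Slide 1 held 2 controls and 2 samples of 6 h, read with another software version, and all other samples lay on slide 2. The fitted level on slide 1 was 0.75 higher for Trib3, 0.72 for Atf5 and 0.67 for Ddit3 than on slide 2, and between -0.15 and 0.33 for the other 5 members. The fit removes this term, and values from slide 2 alone are given where they matter. The rise from control to 6 h was smaller on slide 1 than on slide 2 for every member except Atf4. This gap was widest for Trib3, 2.09 against 2.66, and for no member was the difference between slides called. Samples of 24 h shared arrays only with samples of 72 h, whereas samples of 48 h shared arrays with controls or samples of 6 h. No array joined a 24 or 72 h sample with a control, a 6 h or a 48 h sample. In all comparisons between these sets of groups the pairing on arrays cannot be told apart from time. They are 24 and 72 h against control, 24 and 72 h against 6 h, and the steps from 24 to 48 h and from 48 to 72 h.

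All 8 members rose by 6 h. In that comparison 24.4% of all features tested were called, 13.5% as higher. For every member each 6 h sample lay above each control, a separation found for 23.8% of all features in either direction. At 24 and 72 h 7 members were higher than control and Nupr1 was not called, and at 48 h all 8 were higher. Sample sets did not overlap for 7 members at 24 h (44.9% of all features), 8 at 48 h (38.4%) and 7 at 72 h (50.4%). Among all features, 40.0% were called at 24 h (21.0% higher), 41.6% at 48 h (21.4% higher) and 47.4% at 72 h (25.1% higher). Within slide 2 alone 8, 8, 8 and 7 members were called, since Nupr1 passed at 24 h, and without array 10 the counts were 8, 7, 8 and 7. In pooled cultures, a change in the RNA of each cell and a change in the share of cells that hold it cannot be told apart.

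**Figure D1:**
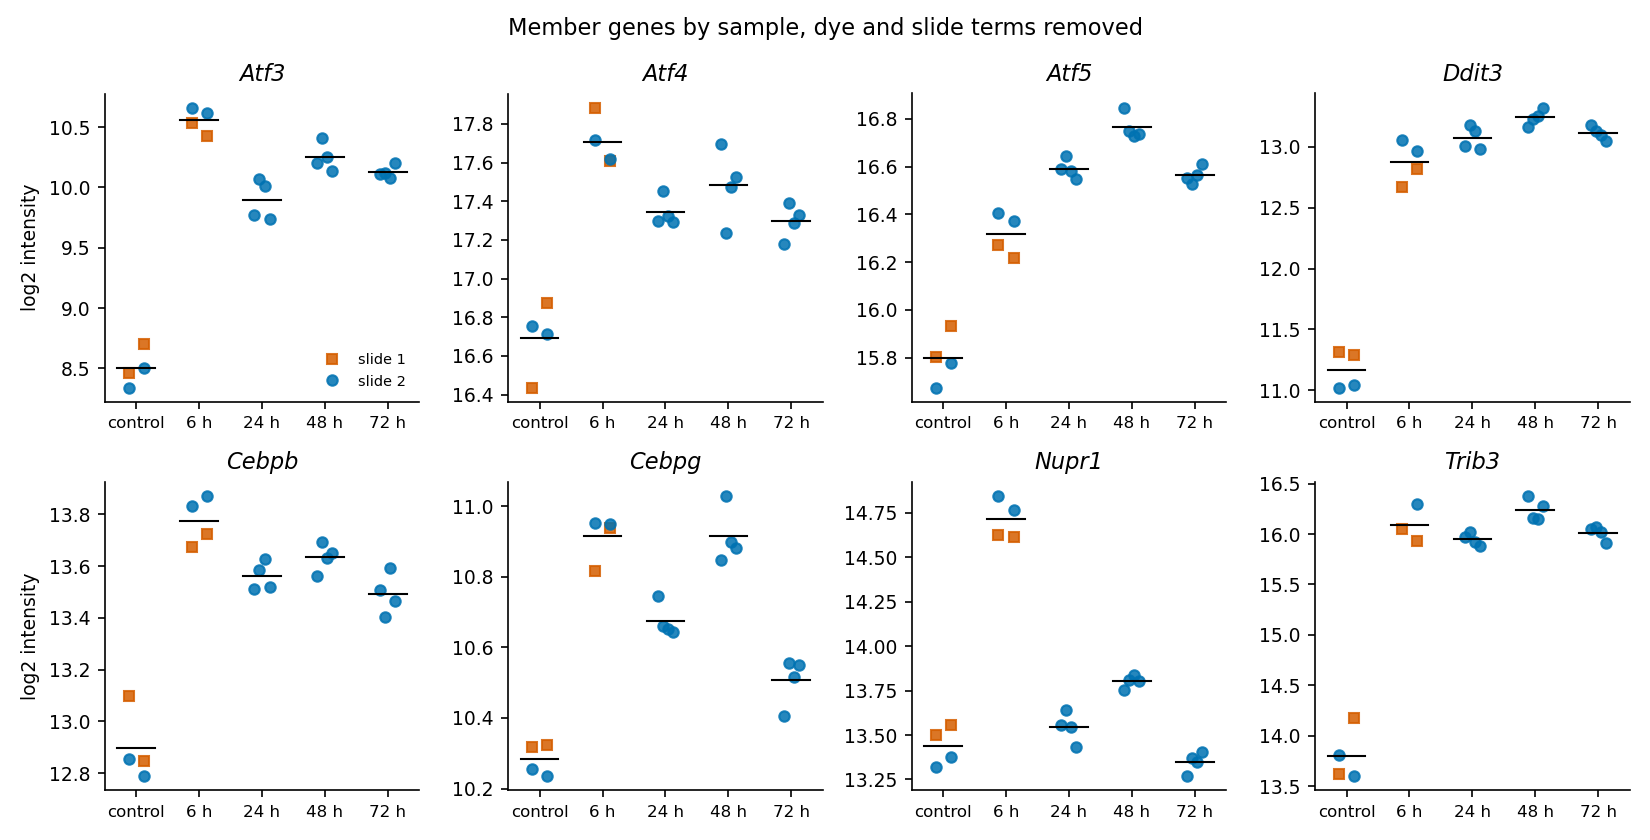
Normalized log2 intensity of the 8 members in each sample (one panel per gene, dye and slide terms removed; vertical axes differ between panels and do not start at 0), with squares for slide 1, circles for slide 2 and a line at the group mean. The treated samples lie above the controls in every panel except Nupr1, where 24 h and 72 h samples fall among the controls.

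Atf4 (chr15:80255184-80257545) encodes the hub of the response. Its values were 16.44, 16.71, 16.76 and 16.87 in controls and 17.61, 17.62, 17.72 and 17.89 at 6 h. The 2 sets did not overlap, and the rise was 1.05 ± 0.09 (2.07-fold, adjusted p = 8.62e-08). Later samples read 17.29, 17.30, 17.32 and 17.46 at 24 h, 17.24, 17.47, 17.53 and 17.70 at 48 h, and 17.18, 17.29, 17.33 and 17.39 at 72 h. All of these stood above the controls, and those of 24 and 72 h stood below every 6 h sample. The rises against control were 0.67 ± 0.10, 0.81 ± 0.09 and 0.62 ± 0.10 (adjusted p at most 7.40e-05). From 6 to 24 h Atf4 fell by 0.38 ± 0.10 (adjusted p = 0.00792), and its further steps of 0.14 ± 0.09 and -0.19 ± 0.09 were not called. A second Atf4 probe, A_51_P464238, rose by 0.83 ± 0.06, 0.57 ± 0.08, 0.81 ± 0.07 and 0.56 ± 0.08. For it the step up to 48 h (0.24 ± 0.07, adjusted p = 0.0361) and the step down to 72 h (-0.25 ± 0.07, adjusted p = 0.0177) were called, with p adjusted over 32897 probes. The brighter probe, A_55_P1979728, had the largest dye term of the members, 0.47 higher in Cy5, so single-array ratios of Atf4 depend on the dye: 6 h over control was 1.64 with the 6 h sample in Cy5 and 0.54 with it in Cy3.

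Atf5 (chr7:44812256-44816658) encodes a close relative of ATF4, known in mammalian cells as a regulator of mitochondrial protein quality genes. Controls read 15.67, 15.78, 15.80 and 15.93, and 6 h samples 16.22, 16.27, 16.37 and 16.41. The rise of 0.51 ± 0.05 (1.42-fold, adjusted p = 1.70e-06) was the smallest of the 8 at this time in the fit over all samples. Within slide 2 alone it was 0.68, and that of Cebpg was 0.67. Atf5 then went on climbing, to 16.55, 16.58, 16.59 and 16.64 at 24 h and 16.73, 16.74, 16.75 and 16.85 at 48 h. At 72 h it read 16.53, 16.55, 16.56 and 16.61. No 24 h sample overlapped a 6 h sample and no 48 h sample overlapped a 24 h or 72 h sample. Against control the later rises were 0.79 ± 0.06, 0.96 ± 0.06 and 0.76 ± 0.06. The step from 6 to 24 h was 0.28 ± 0.06 (adjusted p = 0.00269), that to 48 h was 0.17 ± 0.06 and not called (adjusted p = 0.0636, but 0.00983 within slide 2 and 0.0365 from the samples of the 2 groups alone), and the fall to 72 h was 0.20 ± 0.06 (adjusted p = 0.0188). That fall was not called without the 48 h sample 1_Cy3 (adjusted p = 0.065) or the 72 h sample 2_Cy3 (adjusted p = 0.0509). It was also lost without scaling between arrays (0.475), with quantile normalization (0.0936), in the authors' values (0.112) and without the slide term (0.177). Its late level was thus above its early one, by 0.25 ± 0.06 at 72 h against 6 h (adjusted p = 0.00411). This order rests on the slide term: without it the difference between 24 and 6 h was -0.00054 and that between 72 and 6 h was -0.028, while within slide 2 they were 0.19 (adjusted p = 0.00638) and 0.17 (adjusted p = 0.0121). On the arrays of slide 2 that held both, 48 h exceeded 6 h by 0.38 and 0.33.

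Cebpg (chr7:35046422-35056566) encodes C/EBP gamma, a short family member that pairs with ATF4. Controls lay between 10.24 and 10.32, 6 h samples between 10.82 and 10.95, and the rise was 0.61 ± 0.05 (1.53-fold, adjusted p = 6.53e-08). The level then alternated, with 10.64 to 10.75 at 24 h, 10.85 to 11.03 at 48 h and 10.40 to 10.56 at 72 h. Each set was separate from the one before. All steps were called, a fall of 0.23 ± 0.06 (adjusted p = 0.00555), a rise of 0.24 ± 0.05 (adjusted p = 0.00794) and a fall of 0.41 ± 0.05 (adjusted p = 4.31e-05). The first fall and the rise were not called without scaling between arrays (adjusted p = 0.229 and 0.4). At 72 h Cebpg was still above control by 0.21 ± 0.06 (adjusted p = 0.00568, and 0.051 without scaling between arrays). Its alternation follows the pairing on arrays described above. On the arrays of 24 and 72 h, which need no comparison between arrays, 72 h was lower by 0.06 to 0.30 on the log2 scale in all 4.

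Cebpb (chr2:167688915-167690432) encodes C/EBP beta, made from 1 mRNA as activating and inhibiting forms. It measured 12.79, 12.85, 12.85 and 13.10 in controls and 13.67, 13.72, 13.83 and 13.87 at 6 h. The rise of 0.85 ± 0.06 (1.81-fold, adjusted p = 2.20e-08) was followed by values between 13.40 and 13.69 at all later times, which put every later group above the controls. Against control these were rises of 0.65 ± 0.08, 0.73 ± 0.07 and 0.58 ± 0.08. The decline from 6 h was called at 24 h (-0.20 ± 0.08, adjusted p = 0.0468) and at 72 h (-0.27 ± 0.08, adjusted p = 0.00685). The first of these calls held under 10 of 23 alternative settings. Without scaling between arrays the declines at 24 and 72 h had adjusted p = 0.311 and 0.112. Without the 6 h sample 1_Cy3 the declines had adjusted p = 0.209 and 0.0526, and without the 6 h sample 2_Cy5 0.24 and 0.0607. The 24 h decline was also not called without the 24 h samples 1_Cy3, 2_Cy3 or 2_Cy5 (adjusted p = 0.119, 0.0629 and 0.0888). Steps between the later times were not called, except the fall to 72 h within slide 2 (-0.14, adjusted p = 0.0422).

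Ddit3 (chr10:127290793-127296291) encodes CHOP, a bZIP protein that pairs with C/EBP proteins and promotes death in lasting stress. Controls read 11.02, 11.04, 11.29 and 11.31, and 6 h samples 12.67, 12.82, 12.97 and 13.06. The sets were far apart, and the rise was 1.68 ± 0.08 (3.21-fold, adjusted p = 2.54e-10). It stayed there, with 12.99, 13.00, 13.13 and 13.18 at 24 h, 13.16, 13.23, 13.25 and 13.32 at 48 h, and 13.05, 13.10, 13.13 and 13.18 at 72 h. Sets of neighbouring times overlapped, apart from the distance to the controls. The later rises were 1.90 ± 0.10, 2.06 ± 0.09 (4.17-fold) and 1.93 ± 0.10, and no step between neighbouring times was called, though that from 6 to 24 h was when the 6 h sample 1_Cy3 was left out (0.33, adjusted p = 0.0242). Set against 6 h, the 72 h level was 0.25 ± 0.10 higher (adjusted p = 0.0493), a call that held under 7 of 23 alternatives, with groups that overlapped. It was lost without the 6 h samples 2_Cy3 or 1_Cy5 or the 72 h samples 1_Cy3, 2_Cy3 or 1_Cy5 (adjusted p = 0.0775 to 0.104). The difference was 0.10 (adjusted p = 0.268) within slide 2 and -0.00097 without the slide term. The 6 h rise was 1.44 on slide 1 and 1.98 on slide 2, and the difference between the slides was not called (adjusted p = 0.11).

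Atf3 (chr1:191170296-191183333) encodes a factor induced by many stresses that can repress as well as activate. Controls read 8.34, 8.46, 8.50 and 8.70. At 6 h it read 10.43, 10.54, 10.62 and 10.66, far above them, a rise of 2.02 ± 0.08 (4.07-fold, adjusted p = 1.19e-11). Only 2 of the 14322 named genes had a larger rise at that time. Values then dropped to 9.74, 9.77, 10.01 and 10.07 at 24 h and lay at 10.14, 10.20, 10.25 and 10.41 at 48 h and 10.08, 10.11, 10.12 and 10.20 at 72 h. No later sample reached the 6 h samples. The later rises over control were 1.38 ± 0.09, 1.73 ± 0.08 and 1.61 ± 0.09. Atf3 fell by 0.64 ± 0.09 from 6 to 24 h (adjusted p = 4.42e-05), rose by 0.35 ± 0.09 to 48 h (adjusted p = 0.0137) and did not change detectably to 72 h (-0.12 ± 0.09, adjusted p = 0.341). The step up to 48 h was not called without scaling between arrays (adjusted p = 0.204) or without the 24 h sample 2_Cy5 (adjusted p = 0.0555). At 72 h Atf3 stood 0.41 ± 0.09 below 6 h on the log2 scale (adjusted p = 0.00165).

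Nupr1 (chr7:126623246-126625470) encodes a small chromatin protein that takes part in stress-dependent transcription. It was the 1 member whose rise did not last. Controls measured 13.32, 13.37, 13.50 and 13.56, and 6 h samples 14.62, 14.63, 14.77 and 14.84. The rise was 1.25 ± 0.06 (2.38-fold, adjusted p = 2.63e-10). By 24 h the values were 13.43, 13.55, 13.56 and 13.64, among or just above the controls. The fall from 6 h was 1.16 ± 0.07 (2.23-fold, adjusted p = 2.82e-09) and the remaining difference from control was 0.09 ± 0.07 (adjusted p = 0.348, interval -0.06 to 0.25). Within slide 2 that difference was 0.19 (adjusted p = 0.0206). At 48 h Nupr1 read 13.75, 13.80, 13.81 and 13.84, all above the controls, a rise of 0.35 ± 0.07 (adjusted p = 2.59e-04). At 72 h it read 13.27, 13.35, 13.37 and 13.40, among or just below them, with a difference of -0.10 ± 0.07 (adjusted p = 0.277). The step up to 48 h was 0.26 ± 0.07 (adjusted p = 0.0189) and the step down to 72 h -0.45 ± 0.07 (adjusted p = 1.26e-04). That step up was not called without the 24 h sample 2_Cy5 (adjusted p = 0.0737), without scaling between arrays (0.353) or without the slide term (0.138). On shared arrays 48 h stood above control by 0.41 and 0.46 and below 6 h by 0.92 and 1.04. No array held 24 or 72 h with control, 6 h or 48 h. These pairs therefore do not bear on the values at 24 and 72 h or on the steps to and from 48 h.

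Trib3 (chr2:152337425-152344060) encodes a pseudokinase that binds ATF4 and CHOP and restrains them, and that also binds the kinase AKT. Controls read 13.60, 13.62, 13.81 and 14.18, the widest spread of the members. At 6 h 3 samples read 15.93, 16.05 and 16.30. The spot of the remaining 6 h sample, 1_Cy3, carried an outlier mark and was left out. Even so the nearest samples were well apart, and the rise was 2.28 ± 0.13 (4.86-fold, adjusted p = 2.20e-09), or 2.40 with the marked spot kept. One named gene rose more at 6 h. Later values were 15.88, 15.92, 15.97 and 16.02 at 24 h, 16.15, 16.16, 16.28 and 16.38 at 48 h, and 15.91, 16.02, 16.05 and 16.07 at 72 h. All 12 lay more than a log2 unit above the controls. The rises were 2.15 ± 0.13, 2.44 ± 0.12 (5.42-fold) and 2.21 ± 0.13, the largest of the 8 at every time. The 48 h samples lay above all samples of 24 and 72 h, but the steps of 0.29 ± 0.12 (adjusted p = 0.118) and -0.23 ± 0.12 (adjusted p = 0.175) were not called. Both steps were called within slide 2 (adjusted p = 0.00426 and 0.00905). The difference between 24 and 6 h, -0.13 ± 0.15 over all samples (adjusted p = 0.554), was -0.45 within slide 2 (adjusted p = 0.00207) and -0.33 with the marked spot kept (adjusted p = 0.0944). It was -0.40 from the samples of the 2 groups alone (adjusted p = 0.0141), and without the 6 h sample 2_Cy5 it was 0.18 and not called. In slide 2 a single 6 h value of Trib3 remained, and the fit takes it to vary like the other groups.

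**Figure D2:**
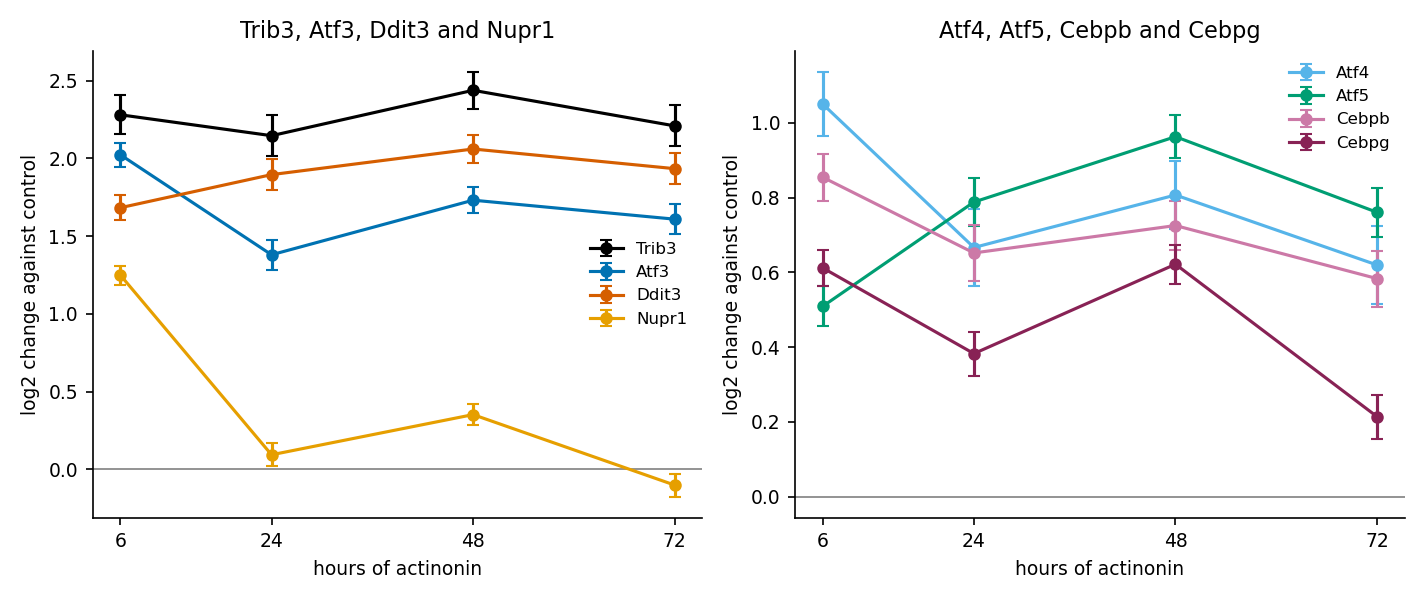
Log2 change against control (vertical axis) by hours of actinonin (horizontal axis), with standard error bars, for 4 members per panel; the vertical scales differ. Trib3 and Ddit3 stayed between 1.68 and 2.44 at all times, whereas Nupr1 went from 1.25 to 0.09, 0.35 and -0.10.

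Between 6 and 24 h the members parted. Atf3, Atf4, Cebpb, Cebpg and Nupr1 fell and Atf5 rose, 6 called of 8 where 32.4% of all features were called (16.2% higher and 16.2% lower). The same 6 had 6 and 24 h samples that did not overlap, as did 40.3% of all features. From 24 to 48 h Atf3, Cebpg and Nupr1 rose, 3 of 8 against 11.7% of all features, with 5.53% higher and 6.19% lower. These 3, Atf5 and Trib3 had sets that did not overlap (22.6% of all features). The 72 h step brought falls of Atf5, Cebpg and Nupr1, 3 of 8 against 22.9% of all features, with 12.7% higher and 10.2% lower. These 3 and Trib3 had separate sets (30.0% of all features). Over the whole interval from 6 to 72 h 7 members were called, with 42.4% of all features (21.5% higher and 20.9% lower), and 6 had separate sets (47.8% of all features). Atf5 and Ddit3 were higher, Atf3, Atf4, Cebpb, Cebpg and Nupr1 were lower, and Trib3 differed by -0.07 ± 0.15 (interval -0.39 to 0.25). Trib3 was called lower within slide 2 (-0.39, adjusted p = 0.004) and from the 6 and 72 h samples alone (-0.34, adjusted p = 0.0248), and without the 6 h sample 2_Cy5 its estimate was 0.24 and not called. The sign of the 24 to 48 h estimate was positive and that of the 48 to 72 h estimate negative in all 8. The pairing of samples on arrays changes at both steps, as it does between 6 and 24 h and between 6 and 72 h. Its part in these results was not tested.

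**Figure D3:**
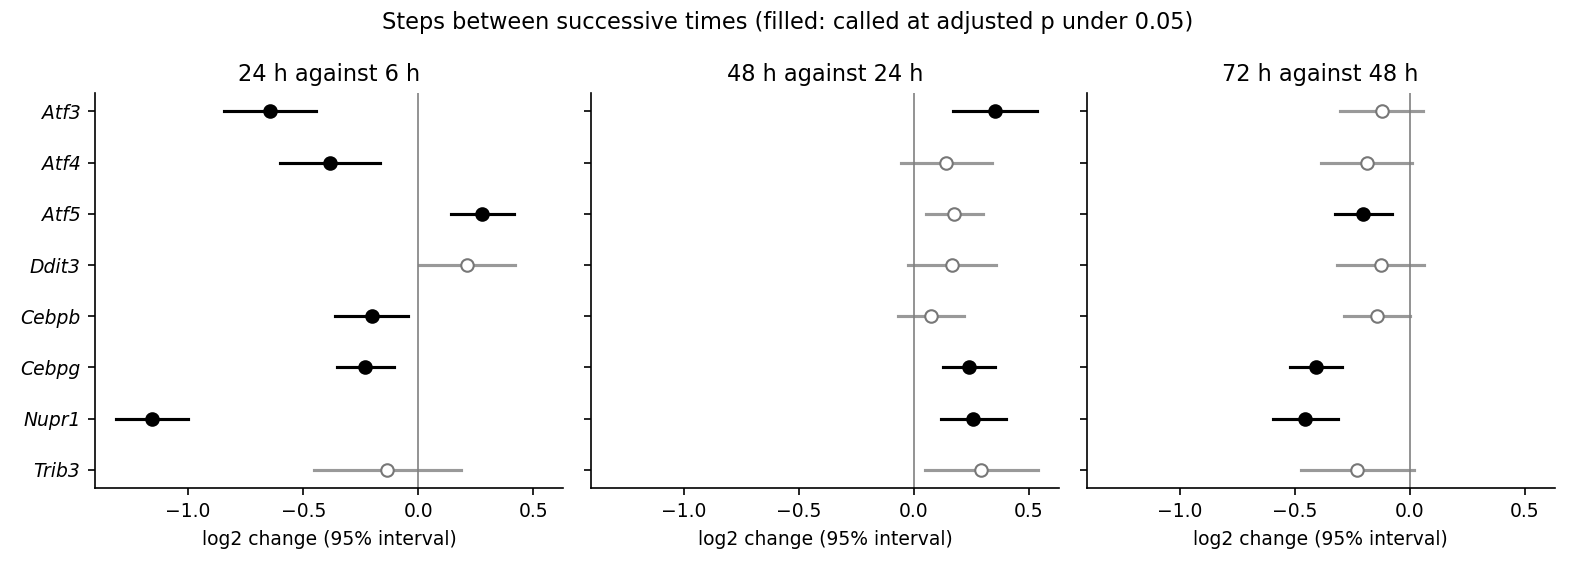
Log2 change from one time to the next (horizontal axis) with its 95% interval for each member; filled points were called at an adjusted p under 0.05. The longest step is the fall of Nupr1 from 6 to 24 h, -1.16, and Atf5 is the called member on the other side of 0 in that panel.

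Pairs of samples on 1 array give ratios without any comparison between arrays. For 48 h over control Ddit3 gave 2.23 and 2.19, Trib3 2.63 and 2.63, and Atf3 1.72 and 1.77, so both dye orientations came out close. The ratios of 6 h to control on slide 1 were 1.49 and 1.40 for Ddit3 and 1.94 and 1.86 for Atf3. For Trib3 they were 2.47 and 1.71; the controls read 13.62 and 14.18. On the 4 arrays with 24 and 72 h samples the ratio of 72 to 24 h was above 0 in all 4 for Atf3 (0.11 to 0.40) and below 0 in all 4 for Cebpg and for Nupr1 (-0.27 to -0.03). It had both signs for the other 5 members.

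**Figure D4:**
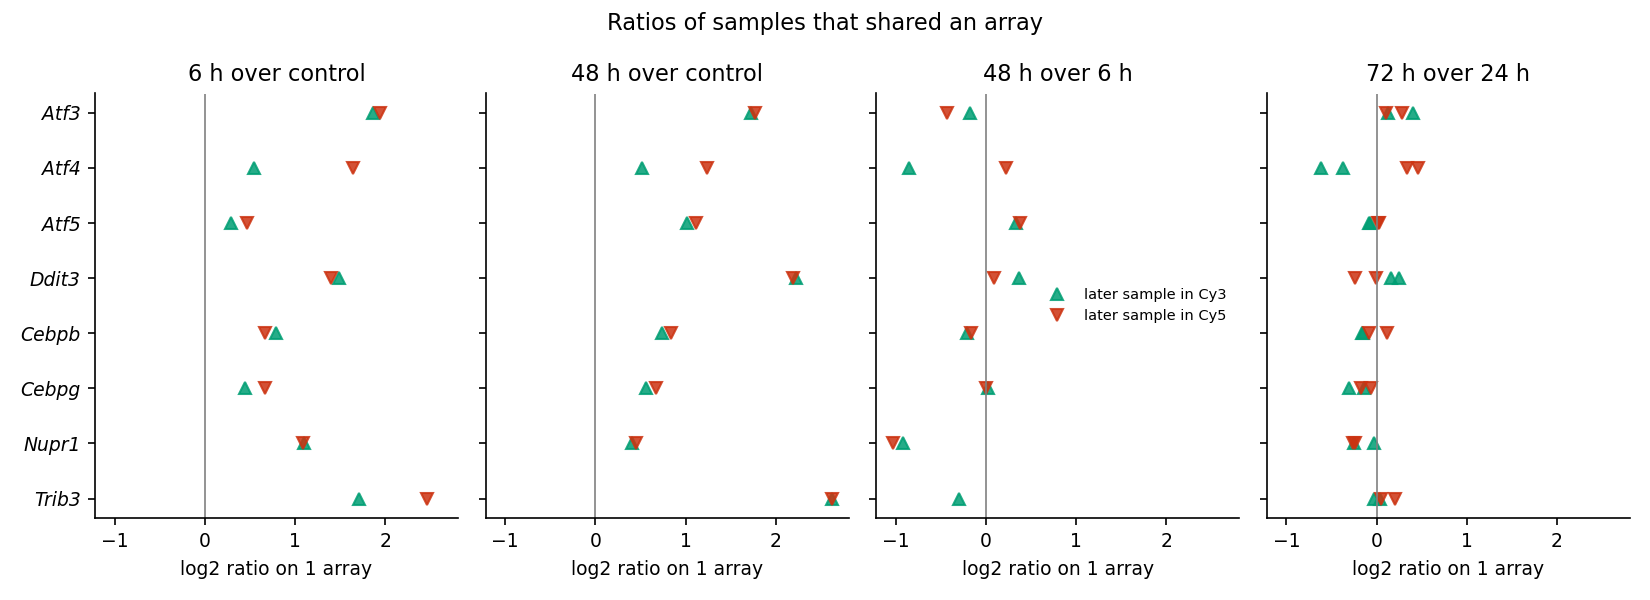
Log2 ratio of the later over the earlier sample on each array that held both (horizontal axis), by member, with the symbol giving the dye of the later sample. Ratios of 48 h to control reach 2.63 for Trib3, and Atf4 is split by dye in all panels.

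Across the samples the members did not all follow 1 course. Ddit3 and Trib3 had the closest profiles (Pearson r = 0.98 over 19 samples), and Nupr1 the least like, with r = 0.045 to Atf5, 0.24 to Ddit3 and 0.36 to Trib3. These r values describe samples that fall into 5 groups and share arrays. Among named genes that are not members, the profile most like that of Atf3 was Psph, the last enzyme of serine synthesis (r = 0.98, 20 samples), followed by Tsc22d3 and the cystine carrier gene Slc7a11 (both 0.97). Nearest to Atf4 were Eif2s2, which encodes a subunit of eIF2 (0.95), the noncoding Snhg1 (0.94) and the asparagine synthetase gene Asns (0.94). Ghitm, Trim46 and Dach2 came nearest to Atf5 (0.96 to 0.97) and Dennd4a, Gramd1b and Arhgef2 to Ddit3 (all 0.98). The genes most like Cebpb were Mdfic, Chac1 and Mrps35 (0.95 to 0.97), and those most like Cebpg were Mex3b, Foxo6 and Dr1 (0.93 to 0.94). Tmem11, Wdr43 and Trim69 were nearest to Nupr1 (0.95 to 0.96). For Wdr43 the changes against control were 0.58 at 6 h and 0.02 at 24 h. Got1, the cytosolic aspartate aminotransferase gene, Dnaja3, a mitochondrial co-chaperone gene, and Klf4 were nearest to Trib3 (all 0.98, 19 samples).

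Most of the listed genes that ATF4 is known to induce rose at the times when the members did. Of 19 tested genes for amino acid synthesis and uptake, 17, 16, 17 and 16 were higher at 6, 24, 48 and 72 h, with median changes of 0.87, 0.65, 0.73 and 0.86, where the medians over all features were 0.0083 or closer to 0. The share of all features called higher at these times was 13.5%, 21.0%, 21.4% and 25.1%. Slc7a11 rose by 1.59 ± 0.08 at 6 h and 1.60 ± 0.10 at 72 h, and Cth, which makes cysteine from cystathionine, by 1.61 ± 0.11 at 6 h and 2.07 ± 0.11 at 48 h. Against the list, the glutamine carrier gene Slc38a2 fell by 0.46 ± 0.09 at 48 h and by 0.38 ± 0.11 at 72 h, and Cbs fell by 0.21 ± 0.08 at 48 h. Of 12 tested genes for tRNA loading and export, 12, 11, 12 and 11 were higher and none was lower (medians 0.67, 0.60, 0.70 and 0.70). The tryptophanyl-tRNA synthetase gene Wars rose by 0.76 ± 0.07 at 6 h and 1.41 ± 0.08 at 72 h, and the tRNA exporter gene Xpot by 0.67 ± 0.06 and 1.13 ± 0.07. Gars, the glycyl-tRNA synthetase gene, rose by 0.82 ± 0.07 at 6 h. These lists were chosen with earlier results of these data known.

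The 16 output genes of ATF4 and CHOP gave 14, 13, 14 and 12 rises and no fall (medians 1.05, 0.82, 0.94 and 0.94). The growth arrest gene Gadd45a rose by 2.55 ± 0.08 at 6 h and 3.25 ± 0.10 at 72 h. Chac1, whose product breaks down glutathione, rose by 1.80 ± 0.07, 1.42 ± 0.08, 1.65 ± 0.07 and 1.17 ± 0.08 at the 4 times. Ppp1r15a, which encodes the GADD34 subunit that brings a phosphatase to eIF2, rose by 1.73 ± 0.08 at 6 h and 2.02 ± 0.10 at 72 h. The lipoprotein receptor gene Vldlr rose by 1.57 ± 0.09 and 2.28 ± 0.11, and the oxidoreductase gene Ero1a by 1.77 ± 0.10 at 72 h. Of 8 genes that act above ATF4 translation, 2, 0, 1 and 1 rose and 1, 2, 4 and 3 fell at 6, 24, 48 and 72 h, where 13.5%, 21.0%, 21.4% and 25.1% of all features rose and 10.9%, 18.9%, 20.2% and 22.3% fell. Eif2ak3, which encodes the endoplasmic reticulum kinase PERK, fell by 0.58 ± 0.07, 0.35 ± 0.08, 0.70 ± 0.07 and 0.41 ± 0.08. Eif2ak1, the gene of the kinase HRI, fell by 0.43 ± 0.07 at 72 h, and Dele1, whose protein reports mitochondrial stress to HRI, rose by 0.19 ± 0.05 at 6 h. Eif2ak4, which encodes the amino acid sensor GCN2, was higher by 0.28 ± 0.09 at 72 h.

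Targets of ATF6 and XBP1, the factors of the other branches of the endoplasmic reticulum stress response, mostly fell. Of 20 tested, 13, 14, 15 and 13 were lower and 1, 2, 2 and 3 higher, with medians of -0.22, -0.49, -0.59 and -0.39. The share of features called lower was 10.9%, 18.9%, 20.2% and 22.3%. Under the alternatives 9 to 13 of these targets were lower at 6 h, 10 to 14 at 24 h, 15 at 48 h and 8 to 13 at 72 h. Sdf2l1 fell by 0.77 ± 0.06 at 6 h and 0.96 ± 0.07 at 24 h, the secreted chaperone gene Creld2 by 0.43 ± 0.05 and 0.90 ± 0.06, and at 48 h the chaperone genes Hsp90b1 and Calr fell by 1.15 ± 0.07 and 1.40 ± 0.10. Sel1l and Edem1, which serve the disposal of misfolded proteins, rose, by 0.63 ± 0.06 and 0.78 ± 0.07 at 72 h. Xbp1 itself was lower by 0.69 ± 0.08 at 24 h. The gene Atf6, in contrast, was higher by 0.45 ± 0.08, 0.27 ± 0.10, 0.26 ± 0.09 and 0.49 ± 0.10 at 6, 24, 48 and 72 h.

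Other bZIP genes and relatives of Trib3 and Nupr1 did not share one direction. Of 38 other bZIP genes tested, 10, 15, 11 and 15 were higher and 3, 13, 12 and 16 lower, with medians of 0.00, 0.05, 0.03 and -0.01, whose sign changed under 2 to 5 of 23 alternatives. Of all features 13.5%, 21.0%, 21.4% and 25.1% were called higher and 10.9%, 18.9%, 20.2% and 22.3% lower. Nfil3 rose by 0.84 ± 0.07 at 48 h. At 6 h Jdp2 rose by 0.76 ± 0.05 and Nfe2l2, the gene of the antioxidant regulator NRF2, by 0.41 ± 0.05. Mafg, which encodes a partner of NRF2, rose by 0.44 ± 0.05 at 6 h and 0.67 ± 0.07 at 24 h, and the clock output gene Dbp by 0.97 ± 0.09 at 72 h. In contrast to Cebpb and Cebpg, Cebpd fell by 0.39 ± 0.05 at 6 h and 0.84 ± 0.07 at 24 h. Jun fell by 1.33 ± 0.08 at 72 h, Fos by 0.51 ± 0.09 at 6 h and Creb3l1 by 0.85 ± 0.08 at 24 h. Trib2 fell by 0.56 ± 0.09, 0.70 ± 0.11, 0.99 ± 0.09 and 0.70 ± 0.11 at the 4 times. Trib1 fell at 24, 48 and 72 h, by 0.59 ± 0.09 at 24 h, and Nupr1l rose at the same times, by 0.50 ± 0.08 at 24 h.

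**Figure D5:**
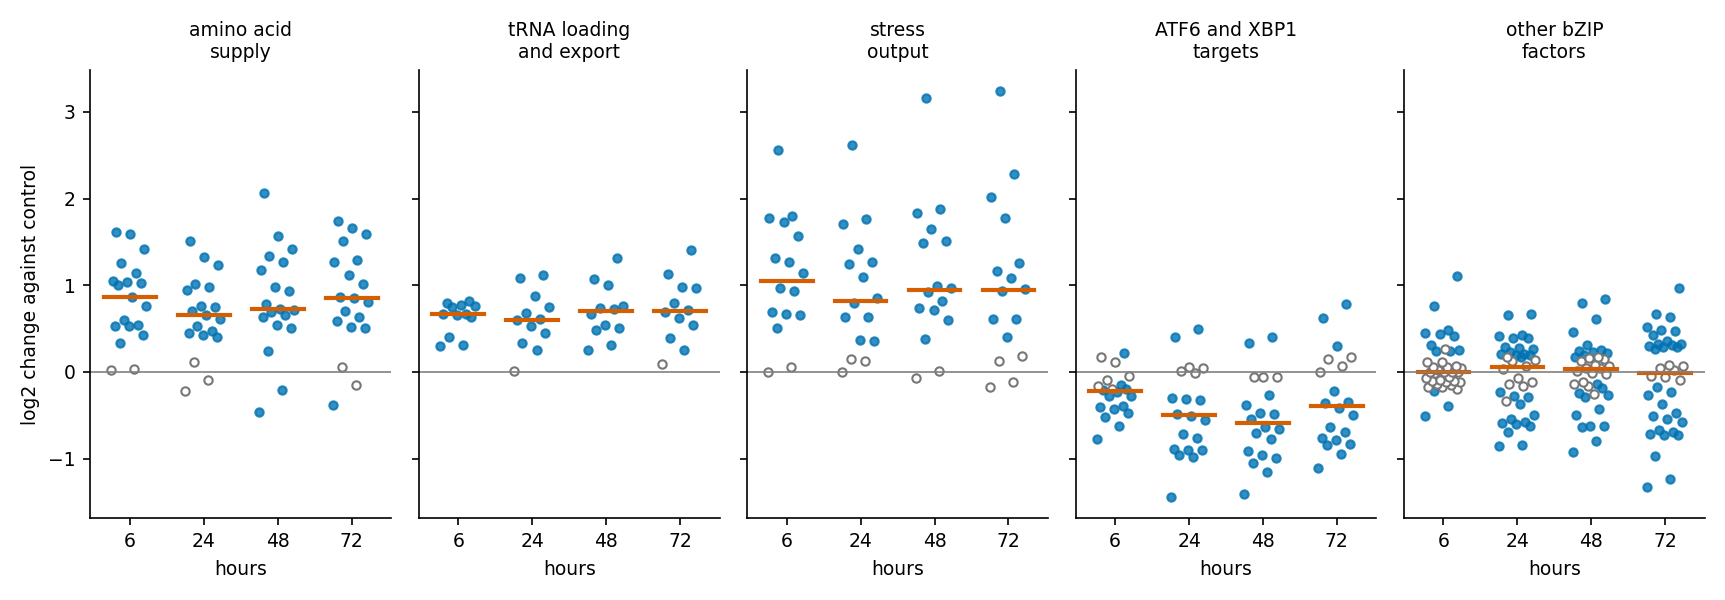
Log2 change against control (vertical axis) of each tested gene of 5 lists by hours of actinonin (horizontal axis); blue points were called, open points were not, and bars are list medians. The first 3 lists have medians of 0.60 to 1.05, the ATF6 and XBP1 targets of -0.59 to -0.22, and the other bZIP genes lie on both sides of 0.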

How the data were processed

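Spots were quantified by Agilent's Feature Extraction software, in version 10.7.3.1 on slide 1 and 11.0.1.1 on slide 2, per the file headers. The deposited intensity values are median pixel brightness of spot and local background per channel, not normalized, and deposited marks (0 or 1 in the files, other than intensities) flag spots well above background, saturated or outlying. An alternative used the authors' deposited value table on the log2 scale, whose column medians were 6.90 to 6.91 and which correlated at 0.9986 or more with log2 of each sample's own channel, so that genes are uncentred. R 2.15 and limma appear in the submitters' processing notes, without the steps. The array annotation is on mm9 per the file headers, so positions printed are RefSeq's on GRCm38.p6.

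In R 4.3.3 with limma 3.58.1, signals were corrected by normexp (offset 50), normalized by loess within arrays and Aquantile between arrays, giving control spots and outlying ones no weight, which takes for granted that few genes change or that changes balance. Control spots (3671 of 62976) and outlying values were then dropped. Of 22773 RefSeq accessions, 21471 matched a symbol. Probes were kept if at least 4 of 20 samples stood well above background and every group had at least 2 values. The brightest probe stood for its gene. Terms were group, dye and slide, with array as random block (correlation 0.256), and tests were two-sided. Array number and spread limit precision. Nothing further says how cultures were started, so the p-values speak only for the spread among samples, which may be technical.

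Members and lists were chosen with earlier results of these data known. Named genes were the members, the 3 named genes most correlated with each, and per list and time up to 4 called genes by smallest adjusted p and up to 2 called against the list. Atf6 was named outside this rule, beside Xbp1. Alternatives were other scalings, background corrections, filters, probe rules, slide and array terms, subsets of samples, a replicate block and leaving out each sample. A replicate label holds a number and a dye. None of 20 samples correlated best with a sample of its own label, but samples on the same array always differ in dye and so in label. This check therefore cannot decide whether the labels pair the cultures.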

Additional observations from a re-analysis of the deposited data

Results flagged for a closer look

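Of 39 sets of 4 values (a member in a group), 2 held a value far from the rest by Dixon's criterion, which chance meets in about 1 of 20 sets. Cebpg in the 6 h sample 2_Cy3 measured 10.82, below the other 6 h samples at 10.94 to 10.95. Cebpg in the 24 h sample 1_Cy3 measured 10.75, above the other 24 h samples at 10.64 to 10.66. Both samples stayed in all values given.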

How the results depend on the processing

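Against control, 734 of 736 member results under the alternatives stayed on their side of the threshold. The exceptions were Cebpg at 72 h without scaling between arrays (0.26, adjusted p = 0.051) and Nupr1 at 24 h on slide 2 only (0.19, adjusted p = 0.0206). Over all 8 comparisons 1410 of 1472 did, 45 calls were lost with the sign kept, 14 were gained, and 3 were lost with a change of sign. Of the 1410, 5 changed sign without being called in either setting, among them Nupr1 at 72 h against control from the samples of the 2 groups (0.0025) and Ddit3 at 24 h against 6 h without the slide term (-0.039), and the other 3 were of Trib3 against 6 h. The losses with a change of sign all came without the slide term: Atf5 at 24 h against 6 h (-0.00054), Atf5 at 72 h against 6 h (-0.028) and Ddit3 at 72 h against 6 h (-0.00097). None was called in the new direction. Members called at 48 h against 24 h numbered 0 without scaling between arrays, 5 on slide 2 only and 5 from the samples of the 2 groups, and 1 to 3 when each replicate was left out, the lowest without the 24 h sample 2_Cy5. On slide 2 only 5 members were called at 72 h against 48 h. With limma, all features called at 48 h against 24 h numbered 336 without scaling between arrays, 803 without the slide term and 1703 to 2230 when each replicate was left out, against 2805. Without scaling between arrays, 5955 features were called at 24 h against control, 4335 at 24 h against 6 h and 1737 at 72 h against 48 h. Without the slide term 2586 were called at 72 h against 48 h. From the samples of the 2 groups alone 2670 were called at 6 h against control. The causes were not tested. With the replicate block, members called were 8, 7, 8 and 7 against control and 5, 3 and 3 for the successive steps, with 6083 features called at 6 h. Whether the replicate labels pair the cultures is not known. The alternative that keeps outlying spots and the list counts under all alternatives were added after seeing the data. List medians kept their sign for the amino acid, tRNA, stress output and ATF6 and XBP1 lists under all 23 alternatives. The median of all features moved by less than 0.1 under each scaling.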
